A study of Homo sapiens with 42 samples.

Results

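The comparison described here is that of poly(A) mRNA from K562 cells treated with 5 μM JTE-607 for 18 h (JTE 18h) with poly(A) mRNA from untreated K562 cells (CTRL). Its members were taken from the sample titles and are 6 of the 42 libraries of the series, 3 of each group, and the titles give them as biological replicates 1 to 3. K562 is an established line from a patient with chronic myeloid leukemia in blast crisis, it depends on the BCR-ABL1 kinase and lacks functional p53, and all groups share this background. JTE 18h was also set directly against the 3 libraries treated with 5 μM JTE-607 for 6 h (JTE 6h) and the 3 treated with 1 μM imatinib, an inhibitor of BCR-ABL1, for 18 h (IM 18h), and values at 1 h of JTE-607 (JTE 1h) are given beside them. The labels name no vehicle for the untreated cells, so the compound and whatever carried it cannot be told apart.

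JTE-607 is a prodrug. Once an esterase such as CES1 has cut it, it binds CPSF73 (gene CPSF3), the nuclease of the cleavage and polyadenylation complex that cuts a new transcript downstream of its AAUAAA signal so that a poly(A) tail can be added. The same nuclease, in a different complex with the U7 snRNP, cuts the pre-mRNAs of the replication-dependent histones. Those mRNAs end just after a conserved stem-loop and carry no poly(A) tail, so little of them is kept when RNA is selected on oligo(dT). Where cleavage fails, RNA polymerase can run past the end of a gene and into the next one, which is called readthrough, and the downstream gene then gains reads without use of its own promoter. The compound was first described for its effect on inflammatory cytokines.

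The stem-loops are shown because the replication-dependent histones had the most genes called higher of the pathway lists used. Each line gives the stem-loop in capitals with 5 bases on either side, read on the gene's own strand from hg38. The pattern searched, on the gene's strand and within 200 bases after the annotated stop codon, was GG, any 3 bases, TT, any base, T, any base, A, any 3 bases and CC.
H4C4, chr6:26188710-26188735, minus strand: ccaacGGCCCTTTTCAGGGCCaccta
H4C8, chr6:26285126-26285151, minus strand: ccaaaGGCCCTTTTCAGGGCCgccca
H3C6, chr6:26225591-26225616, plus strand: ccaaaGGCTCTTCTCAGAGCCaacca
H2AC13, chr6:27808642-27808667, plus strand: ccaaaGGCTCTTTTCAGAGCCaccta
H2BC18, chr1:149811880-149811905, minus strand: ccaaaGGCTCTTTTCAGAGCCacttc
H1-2, chr6:26055739-26055764, minus strand: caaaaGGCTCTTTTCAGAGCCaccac
The first 5 of these genes were called higher in JTE 18h, while H1-2, the most abundant histone gene of the list in CTRL, was not. The pattern was found after the stop codon of 43 of the 44 histone genes tested, 22 to 57 bases downstream, against 0.575% of the 12689 protein-coding genes tested. It was found in all 20 histone genes called higher and in 23 of the 24 not called (H2BC12L being the exception), and the same 16 letters, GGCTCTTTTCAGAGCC, were shared by 25 genes of both kinds.

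Total counts ran from 17855236 to 19031221 in CTRL and from 16439848 to 18460064 in JTE 18h. Replicates of each group differed by more than sampling noise (chi-square per gene 15.1 to 24.6 in CTRL and 2.37 to 12.2 in JTE 18h, the lowest between replicates 1 and 3). One library stood apart: CTRL replicate 2 held 420 CPM (a gene's reads relative to all reads of the library, scaled by TMM) of ATF4, the transcription factor of the integrated stress response, while CTRL replicates 1 and 3 held 149 and 157. The line's own genes were present in both groups, with mean levels of 166 and 140 CPM for GATA1 and 1330 and 894 for TFRC in CTRL and JTE 18h, and of the 8 K562 markers 0 were called by edgeR or DESeq2 (3 had an unadjusted edgeR p under 0.05). Of the other markers, the platelet genes PF4, PPBP, GP9 and GP1BB and the lymphocyte gene MS4A1 were at 0 in CTRL and JTE 18h.

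The first question was how many mRNAs differed after 18 h of JTE-607. By edgeR's quasi-likelihood test (a Benjamini-Hochberg adjusted p below 0.05, with an absolute log2 fold change above 0.6), 975 of 18095 genes were called (5.39%), 596 higher (3.29%) and 379 lower (2.09%). Rises were mostly in mRNAs scarce in CTRL and falls in more abundant ones: the median CTRL level was 1.79 CPM among genes called higher, 13.8 CPM among those called lower and 8.70 CPM among all genes tested. Part of this is fixed in advance, as the CTRL level is one side of the fold change. By the mean of all 27 mRNA libraries, 5.01% of 9278 genes below 10 CPM were called higher and 1.76% lower. For the 8817 genes of at least 10 CPM the shares were 1.49% and 2.45%. Among 2414 lncRNAs 5.10% were called higher and 1.33% lower, while among 12704 protein-coding genes the shares were 3.27% and 2.33%. Against the same CTRL libraries, 0.851% of genes were called at JTE 1h (0.387% higher, 0.464% lower), 13.2% at JTE 6h (6.73% higher, 6.47% lower) and 30.5% in IM 18h (17.2% higher, 13.2% lower). In bulk libraries a change in the share of cells and a change in RNA per cell cannot be told apart. Leaving out JTE 18h replicate 3 gave 577 calls and leaving out replicate 1 gave 629.

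**Figure D1:**
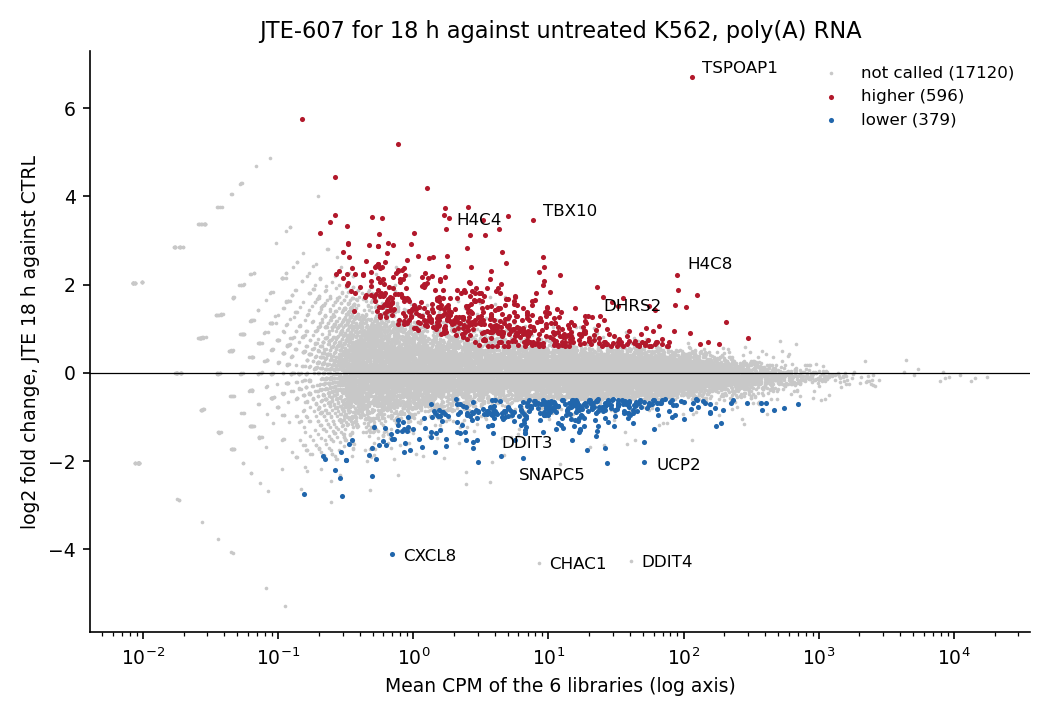
Each point is a tested gene, with its mean CPM over the 3 CTRL and 3 JTE 18h libraries on the x axis (log scale) and its log2 fold change on the y axis; red and blue points are genes called higher (596) and lower (379). TSPOAP1 lies above all other genes of its abundance, and CHAC1 and DDIT4 lie low without being called.

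Replication-dependent histone genes were called higher in 20 of 44 cases. Of 71 listed genes 67 were in the table and 44 passed the filter on low counts, and of these 20 were called higher and 0 lower (against 3.29% and 2.09% of all genes tested), with a median log2 fold change of 1.15 against -0.01 over all genes. The groups did not overlap for 35 of the 44, while this held for 31.4% of all genes tested. Summed over the list, CTRL replicates 1 to 3 held 1630, 1950 and 1180 CPM and JTE 18h replicates held 2220, 2650 and 2330 CPM. All 3 JTE 18h sums lay above all 3 CTRL sums, and the sums at JTE 1h (1300 to 1960 CPM) and JTE 6h (1390 to 2080 CPM) lay in the range of CTRL or just above it. The IM 18h sums were also higher than those of CTRL on average but overlapped them: replicates 1 to 3 held 2090, 2000 and 1590 CPM. Their mean was 1890 CPM, against 1580 CPM in CTRL and 2400 CPM in JTE 18h. Called histone genes numbered 0 at JTE 1h and 8 at JTE 6h, 7 higher and 1 lower, with medians of 0.05 and 0.02; the 3 times share their CTRL libraries. A gene of the list that passed the filter only through the libraries in which it is high had to differ, and 13 of the 29 genes with at least 1 CPM in CTRL were called higher, with a median of 0.86.

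Called genes were found in all 4 core histones of the nucleosome and in the linker histone H1, and differences between the classes were not tested. Genes called higher were 6 of 9 tested for H4, 3 of 5 for H3, 4 of 9 for H2A, 6 of 16 for H2B and 1 of 5 for H1. H4C8 (ENSG00000158406, chromosome 6, 26277609 to 26285638) was measured at 34.5, 31.2 and 28.9 CPM in CTRL and at 143, 151 and 144 CPM in JTE 18h. Its groups were far apart, with a log2 fold change of 2.21 (SE 0.17, edgeR adjusted p 8.43e-09). H4C4 went from 7, 9 and 2 counts in the CTRL libraries to 61, 54 and 60 counts in JTE 18h, a ratio of 10.1 of the summed counts (exact 95% interval 6.22 to 17.5, counting error only). The histone H3 gene H3C6 held 0.772, 0.681 and 0.167 CPM in CTRL and 5.62, 2.92 and 5.75 CPM in JTE 18h (log2 fold change 3.13, SE 0.53, edgeR adjusted p 5.1e-04). For H2BC18 the CTRL libraries held 10.6, 11 and 6.80 CPM and the JTE 18h libraries 35.5, 37.8 and 35.6 CPM, again with no overlap (1.94, SE 0.24). H3C10, the H3 gene with the highest level of those called, held 64.0, 69.9 and 31.3 CPM in CTRL and 127, 197 and 141 CPM in JTE 18h (1.49, SE 0.32).

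The most abundant members did not pass the test. H1-2 held 457, 694 and 430 CPM in CTRL and 461, 564 and 523 CPM in JTE 18h (log2 fold change -0.03, SE 0.23). H2BC12 (343, 336 and 224 CPM, then 336, 381 and 341 CPM) and H4C9 (200, 201 and 134 CPM, then 205, 232 and 220 CPM) had log2 fold changes of 0.23 and 0.29. CTRL replicate 3 had the lowest summed level of the list, and without it 15 histone genes were called and the median was 0.97; without JTE 18h replicate 2 there were 14. The annotated gene ran more than 100 bases past the stem-loop for 22 of the tested genes, of which 12 were called higher, and did not for 21 others with the pattern, of which 8 were called. Both kinds therefore held called genes. For H4C4, whose annotated end lies before its stem-loop, the counts come from the coding part, while H4C8 and H4C5 carry an AATAAA at their distant annotated ends.

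**Figure D2:**
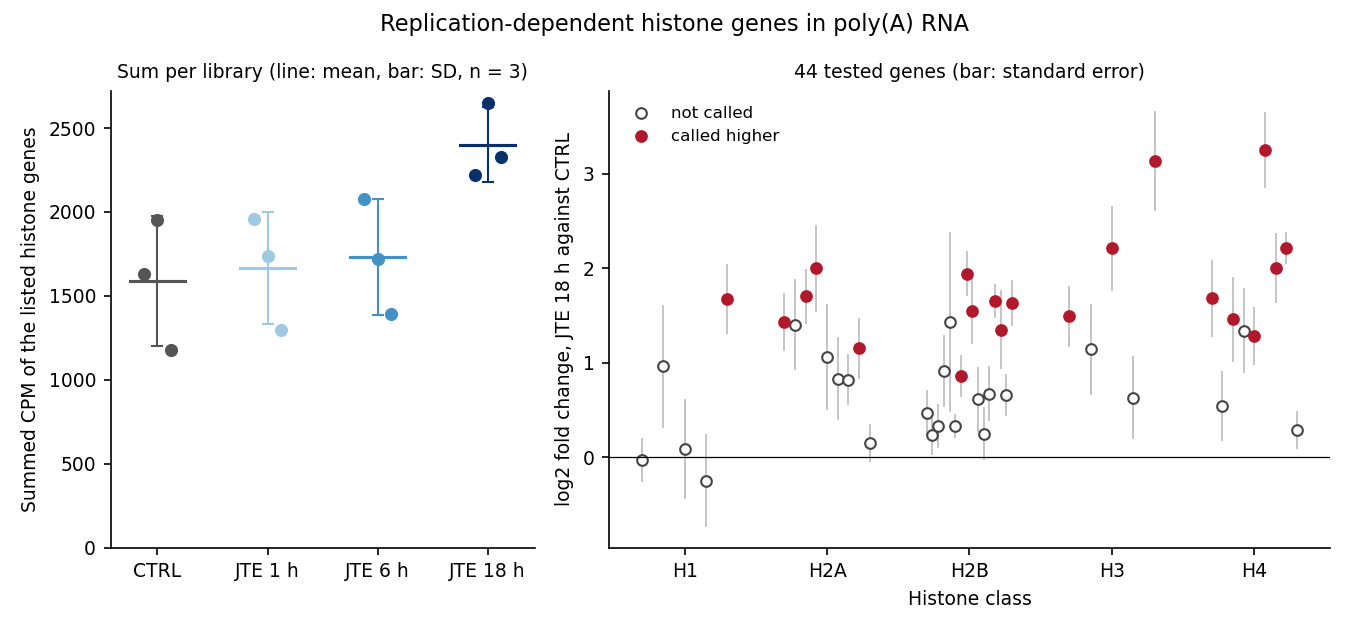
Left, summed CPM of the 67 histone genes in each library of CTRL and of JTE-607 at 1, 6 and 18 h (points), with the mean and SD of 3 libraries; right, log2 fold change and standard error of the 44 tested genes by class, filled where called higher. The JTE 18h sums (2220 to 2650 CPM) lie above every other library shown, and H4 has 6 of its 9 genes called.

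Of the histone variants that are made outside S phase and have polyadenylated mRNAs, 0 of 10 tested genes were called by edgeR. Their median log2 fold change was 0.08, and the groups did not overlap for 5 of the 10 (31.4% over all genes). Of the 7 factors listed for histone pre-mRNA processing, such as SLBP and the U7 proteins, 0 were called by edgeR (median -0.08). In these lists 5 and 1 genes had an unadjusted p under 0.05, and DESeq2 called 0 in both. Over all genes 5.39% were called, so 0 calls in lists this short lie near that share. Among 42 DNA replication genes 0 were called higher by edgeR and 2 lower, a share near the 2.09% of all genes, with a median of 0.01. The lower ones were RFC4, a subunit of the clamp loader (118, 130 and 119 CPM in CTRL and 76.1, 82.1 and 76.5 CPM in JTE 18h, log2 fold change -0.65), and GINS4, a subunit of the replicative helicase (-0.62, a call lost in 3 of 13 alternatives, those without CTRL replicate 3 or JTE 18h replicate 3 and with upper quartile normalization).

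The mRNA of the target itself did not pass the test. CPSF3 held 156, 163 and 136 CPM in CTRL and 151, 149 and 149 CPM in JTE 18h, and its log2 fold change was -0.02 (SE 0.10). CES1 was in no test because its counts were too low. Of 23 genes of the cleavage and polyadenylation complex, 3 were called higher and 0 lower, against 3.29% and 2.09% of all genes (median -0.02, or 0.01 with upper quartile normalization). CSTF3, a subunit of the factor that binds downstream of the cleavage site, held 49.5, 53.1 and 58.4 CPM in CTRL and 87.8, 80.5 and 85.8 CPM in JTE 18h, with no overlap (0.66, SE 0.10, edgeR adjusted p 1.67e-04). PCF11, which links cleavage to termination, went from 112, 88.1 and 108 CPM to 165, 153 and 169 CPM (0.66, SE 0.11), and RBBP6, an activator of the nuclease, from 166, 128 and 136 CPM to 230, 218 and 225 CPM (0.65, SE 0.13). PCF11 was not called without CTRL replicate 2, nor RBBP6 without CTRL replicate 2 or 3.

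All 3 of these genes stood higher still at 6 h. The JTE 6h libraries held 151, 122 and 139 CPM of CSTF3, 272, 257 and 298 CPM of PCF11 and 339, 340 and 358 CPM of RBBP6. JTE 18h was lower than JTE 6h by direct test for each, with log2 fold changes of -0.70, -0.76 and -0.62. Several other subunits were below CTRL without passing the fold threshold, among them CPSF1 (150, 142 and 140 CPM in CTRL, 98.5, 106 and 95.8 CPM in JTE 18h, log2 fold change -0.53, edgeR adjusted p 3.12e-04). In the termination list PCF11 was the one gene called of 17, and of 17 Integrator subunits, which cut snRNAs and many short transcripts, 0 were called by edgeR or DESeq2 (median -0.12; 6 had an unadjusted edgeR p under 0.05).

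The largest rise was in TSPOAP1, which encodes a binding partner of the mitochondrial protein TSPO. It lies on chromosome 17 (58301228 to 58328760, minus strand, hg38), 2124 bases beyond the end of MIR142HG, the host transcript of miR-142, on the same strand. TSPOAP1 is not among the tandem genes defined below, for 3 reasons. Its mean over all mRNA libraries is not below 10 CPM, and it overlaps its antisense gene TSPOAP1-AS1. MIR142HG, with a mean of 7.2 CPM, is below the 10 CPM set for an upstream gene. Counts of TSPOAP1 were 46, 29 and 45 in the CTRL libraries and 4327, 4206 and 4090 in JTE 18h, or 2.54, 1.52 and 2.51 CPM against 219, 250 and 214 CPM (log2 fold change 6.70 with an SE of 0.32, edgeR adjusted p 2.86e-12). The JTE 1h libraries held 23.5, 31.1 and 37.3 CPM and the JTE 6h libraries 332, 314 and 275 CPM, and JTE 18h did not differ from JTE 6h beyond the threshold (-0.43, adjusted p 0.198). Upstream, MIR142HG held 12.3, 5.34 and 10.7 CPM in CTRL and 11.5, 13.2 and 9.73 CPM in JTE 18h, with overlapping groups (0.28, SE 0.42). The annotated end of MIR142HG holds the hexamer AATAAA, in capitals here, as does that of TSPOAP1; both are shown because the reads of interest lie past the first of them.
MIR142HG, chr17:58330888-58330917, minus strand: ggacccaatgctAATAAAgactggactgtg
TSPOAP1, chr17:58301235-58301264, minus strand: acattttattatAATAAAgtctattttcac

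Several genes of the largest rises appeared at 18 h without a rise at 1 or 6 h. TBX10, a T-box transcription factor gene, held 1.60, 0.995 and 1.23 CPM in CTRL, 0.744, 1.48 and 0.479 CPM at 6 h and 12.6, 13.2 and 16.3 CPM at 18 h (log2 fold change against CTRL 3.46, SE 0.34, edgeR adjusted p 4.48e-07). PRR29 held 1.76, 1.26 and 5.85 CPM in CTRL and 12.5, 18.0 and 16.1 CPM in JTE 18h (2.39, SE 0.60), and it was not called without CTRL replicate 1 or 2. It overlaps ICAM2 on the other strand, and reads of such pairs cannot be told apart in counts made without strand. DHRS2, a short-chain dehydrogenase, was measured at 51.4, 34.8 and 32.0 CPM in CTRL and at 93.4, 233 and 105 CPM in JTE 18h (1.87, SE 0.38), where replicate 2 stood well above the other 2 libraries.

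SCG3, which encodes the secretory granule protein secretogranin III, and TMOD2, a tropomodulin that caps actin filaments, are neighbors on chromosome 15, with TMOD2 starting 30530 bases past the end of SCG3 on the same strand. SCG3 held 64.9, 60.8 and 46.2 CPM in CTRL and 162, 261 and 163 CPM in JTE 18h (log2 fold change 1.77, SE 0.24), and TMOD2 held 11.8, 16.4 and 7.14 CPM and 36.4, 37.5 and 41.7 CPM (1.71, SE 0.29). C1orf116, an androgen-regulated gene, went from 3.09, 5.55 and 4.85 CPM to 14.9, 15.2 and 18.4 CPM (1.84, SE 0.24). All 3 were higher than at 6 h by direct test, by 1.42, 1.09 and 2.09 on the log2 scale.

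AJM1 and the lncRNA LINC01963 were already high at 6 h. AJM1, which overlaps PHPT1 and starts 3228 bases past the end of RABL6 on the same strand, held 2.37, 0.943 and 4.35 CPM in CTRL, 11, 16.5 and 20.8 CPM at 6 h and 18.0, 12.2 and 16.8 CPM at 18 h (2.62, SE 0.39). LINC01963 was at 5.07, 2.41 and 5.63 CPM in CTRL, 56.8, 40.1 and 70.2 CPM at 6 h and 23.3, 15.2 and 21.9 CPM at 18 h. Its rise against CTRL was 2.21 (SE 0.40), and it was lower at 18 h than at 6 h (-1.47). The other 3 of the 12 largest rises among genes of at least 10 CPM in JTE 18h were the histone genes H4C8, H4C5 and H2BC18.

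**Figure D3:**
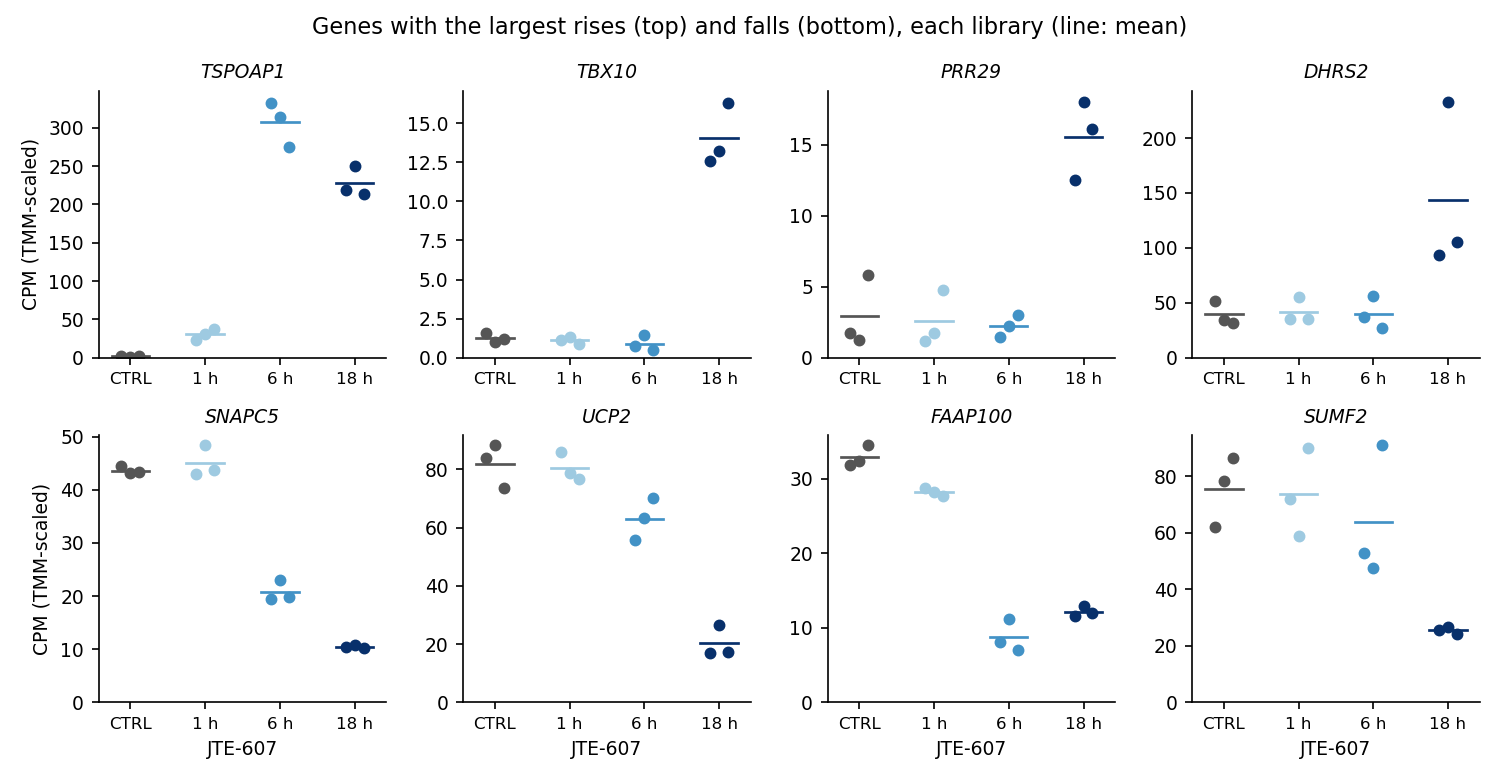
CPM of each library (points) and group mean (line) in CTRL and after 1, 6 and 18 h of JTE-607, for 4 genes with large rises (top) and 4 with large falls (bottom); y axes start at 0 and differ between genes. TSPOAP1 is high from 6 h, TBX10, PRR29 and DHRS2 are high at 18 h, FAAP100 is lowest at 6 h, and UCP2 and SUMF2 are lowest at 18 h.

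Among genes of at least 10 CPM in CTRL whose groups did not overlap, SNAPC5 and UCP2 had the largest called falls. SNAPC5, a subunit of the complex that starts snRNA transcription, held 44.4, 43.1 and 43.4 CPM in CTRL and 10.5, 10.8 and 10.2 CPM in JTE 18h (log2 fold change -2.05, SE 0.13, edgeR adjusted p 3.45e-10). It starts 202 bases past the end of the ribosomal protein gene RPL4 on the same strand and overlaps MAP2K1 on the other. UCP2, an uncoupling protein of the inner mitochondrial membrane, held 83.9, 88.2 and 73.5 CPM in CTRL, 55.8, 63.3 and 70.1 CPM at 6 h and 17, 26.7 and 17.2 CPM at 18 h (-2.02, SE 0.14, edgeR adjusted p 1.7e-09). No library of JTE 18h reached the lowest CTRL library for either gene.

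SUMF2, MRPL12, FAAP100 and DDIT3 also start behind another expressed gene. SUMF2, which encodes a paralog of the sulfatase-modifying enzyme, starts 13 bases past CCT6A and held 62.1, 78.2 and 86.5 CPM in CTRL and 25.7, 26.8 and 24.1 CPM in JTE 18h (-1.57, SE 0.24). MRPL12, a mitochondrial ribosome protein, starts 219 bases past HGS and went from 15.2, 13.4 and 10.8 CPM to 4.21, 6.78 and 4.60 CPM (-1.34, SE 0.26). FAAP100, of the Fanconi anemia core complex, starts 2926 bases past NPLOC4 and went from 31.9, 32.4 and 34.5 CPM to 11.6, 12.9 and 12 CPM (-1.44, SE 0.14), after 8.06, 11.2 and 7.09 CPM at 6 h. DDIT3 starts 9585 bases past DCTN2, overlaps MARS1 and is described with the stress genes. RPL4, MAP2K1, CCT6A, HGS, NPLOC4, DCTN2, MARS1, ICAM2, PHPT1 and RABL6 are named only for their position.

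The remaining large falls had log2 fold changes from -1.92 to -1.29. They were TLCD1 (12.5, 8.38 and 9.92 CPM in CTRL, 2.99, 3.33 and 1.83 CPM in JTE 18h; it overlaps the ribosomal protein gene RPL23A on the other strand), OPLAH, the 5-oxoprolinase of the glutathione cycle (-1.75), ZFPM2, a cofactor of GATA factors (-1.69), GCDH, an enzyme of lysine breakdown (-1.33), GPAA1, which attaches GPI anchors (-1.31), and the transcription factor SOX5 (-1.29). ZFPM2 held 33.4, 48.7 and 38.0 CPM in CTRL and 13.7, 9.46 and 14 CPM in JTE 18h. GPAA1 was level with CTRL at 6 h (29.5, 31.4 and 33.8 CPM, against 36.0, 30.6 and 30.7 CPM) and lower at 18 h (12, 15.7 and 11.6 CPM). GCDH was not called in 4 of the 6 fits without 1 library, and SOX5 in 5 of the 6.

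Genes behind the end of an expressed neighbor were then taken as a class, to ask whether readthrough-like signal was present at 18 h. A tandem gene is a gene with a mean below 10 CPM that starts within 10000 bases past the end of a same-strand gene of at least 10 CPM without overlapping any gene. Isolated genes also overlap none, and have no gene of that level within this distance on either strand. Of 451 tandem genes 54 were called higher (11.97%), against 83 of 1963 isolated genes (4.23%), 18 of 313 convergent genes (5.75%), whose ends face an expressed gene on the other strand, and 5.01% of all 9278 genes below 10 CPM. The median log2 fold change was 0.367 for tandem, 0.21 for convergent and 0.051 for isolated genes. Here too, a gene that passed the filter on low counts only through the libraries in which it is high had to differ. With at least 1 CPM in CTRL, 30 of 183 tandem genes (16.4%) and 45 of 1014 isolated genes (4.44%) were called higher, and the medians were 0.14 and -0.01. In the 6 fits without 1 library, 33 to 45 tandem genes and 42 to 62 isolated genes were called. Without JTE 18h replicate 1 there were 33 tandem and 48 isolated genes, and there were 42 isolated genes without CTRL replicate 1 and again without JTE 18h replicate 3.

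Scarce genes behind PRUNE1, USF2 and MRPL52 were among the tandem genes called higher (named after their values were seen). BNIPL, 857 bases past PRUNE1, held 0.331, 0.681 and 0.446 CPM in CTRL and 3.19, 3.09 and 2.93 CPM in JTE 18h (2.64, SE 0.32). HAMP, which encodes the iron hormone hepcidin, starts 895 bases past USF2 and went from 0.331, 0.157 and 0.279 CPM to 1.47, 1.55 and 1.57 CPM (2.56, SE 0.61). MMP14, a membrane-bound matrix protease gene 1520 bases past MRPL52, went from 1.60, 1.94 and 1.78 CPM to 6.79, 6.01 and 6.38 CPM (1.85, SE 0.27). BNIPL and HAMP lay below 1 CPM in every CTRL library, so the limit set by the filter bears on their rises.

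A read-in score was computed per library, as the difference between tandem and isolated genes in their mean log2(CPM + 0.5). It was -0.275, -0.422 and -0.245 in CTRL and -0.146, -0.147 and -0.135 in JTE 18h, so that the groups did not overlap. Over the 183 tandem and 1014 isolated genes of at least 1 CPM in CTRL, which no JTE-607 library can bring in, it was 0.009, -0.119 and 0.060 in CTRL and 0.162, 0.160 and 0.155 in JTE 18h, again without overlap. Over all genes of the classes, the score at 6 h was 0.198, 0.284 and 0.516, above every JTE 18h library, and at 1 h it was -0.183, -0.071 and 0.081. Convergent genes, set against isolated genes in the same way, also moved upward, with groups that overlapped. Their values were -0.215, -0.281 and -0.149 in CTRL and -0.114, -0.153 and -0.099 in JTE 18h. An exact permutation test of 3 against 3 libraries cannot give a p below 0.1, and none was run.

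**Figure D4:**
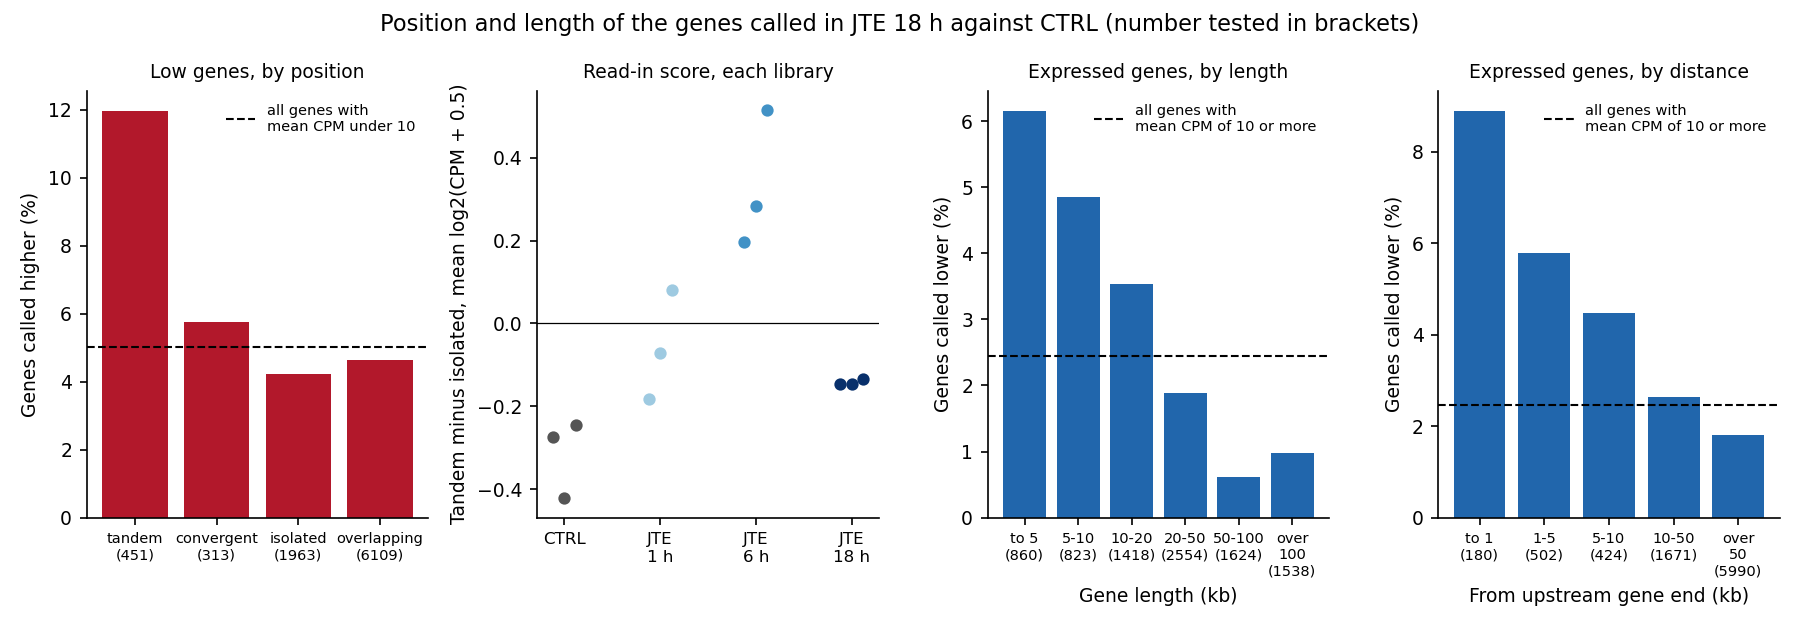
From left: percent of genes below 10 CPM called higher, by position class; the read-in score of each library in CTRL and at 1, 6 and 18 h of JTE-607; percent of genes of at least 10 CPM called lower, by gene length; and the same by distance from the end of the nearest upstream expressed gene on the same strand. Tandem genes have the highest bar (11.97%), the JTE 18h scores lie between CTRL and JTE 6h, and the share called lower is greatest for genes of up to 5000 bases (6.16%) and for genes within 1000 bases of an upstream end (8.89%).

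Among 8817 genes of at least 10 CPM, 2.45% were called lower, and these were more often short. Of 860 genes of up to 5000 bases 53 were called lower (6.16%), of 2554 genes between 20000 and 50000 bases 48 (1.88%) and of 1538 genes of over 100000 bases 15 (0.975%), while the share called higher was between 1.11% and 1.79% in every length class. For genes of over 100000 bases the count called lower was 7 without CTRL replicate 2, 9 without JTE 18h replicate 3 and 26 with no filter. The median length of protein-coding genes called lower was 11042 bases, against 31465 for all tested and 25106 for those called higher. By distance from the end of the nearest expressed gene upstream on the same strand, 16 of 180 genes within 1000 bases were called lower (8.89%) and 108 of 5990 beyond 50000 bases (1.80%). Genes close to an upstream end were also shorter (median 11081 against 37837 bases), so length and distance cannot be told apart in these counts. The classes by length and distance were chosen after the values were seen.

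Gene ends differed in their signal. In the last 50 bases of the annotated gene, AATAAA on the gene's strand was present in 84 of 113 protein-coding genes of at least 10 CPM called higher (74.3%), in 102 of 210 called lower (48.6%) and in 5146 of all 8272 (62.2%). Counting ATTAAA as well, the shares were 84.1%, 62.9% and 76.7%. The median GC content of this window was 30%, 36% and 30%. Put the other way, 1.98% of the 5146 genes with AATAAA and 3.45% of the 3126 without it were called lower, and 1.63% and 0.928% were called higher. The last 30 annotated bases of 3 genes that fell and lack AATAAA there are shown beside the stretch around AATAAA (in capitals) of 2 that rose.
SNAPC5, chr15:66490135-66490164, minus strand: ctgtccagatatttacagtattacttagct
UCP2, chr11:73974667-73974696, minus strand: catccataaagcaagctcaaccttggcgtc
FAAP100, chr17:81539885-81539914, minus strand: caaacgaccctgtctgtccgtgaaccttca
SCG3, chr15:51720994-51721023, plus strand: tttgctcttcatAATAAAccttgctactgt
DHRS2, chr14:23645605-23645634, plus strand: tttttttcctaaAATAAActcaaatttatc
Exceptions for AATAAA ran both ways. TBX10 and PRR29 rose and lack it in this window, although both hold ATTAAA there. SUMF2 and SOX5 fell and have AATAAA. Annotated ends are not measured cleavage sites, and the window says nothing of sites further upstream.

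Cytokine genes are of interest because the compound was first described for them. Of 17 listed genes only 8 passed the filter on low counts, and of these 4 were called lower and 0 higher, with a median log2 fold change of -0.81 (2.09% of all genes were called lower). With no filter 16 were tested, 5 (31.2%) were called lower and the median was -0.01. CXCL8, which encodes interleukin-8, had 11, 21 and 41 counts in the CTRL libraries and 1, 0 and 3 counts in JTE 18h, a ratio of 0.0571 of the summed counts (exact 95% interval 0.0152 to 0.153, counting error only; edgeR adjusted p 0.00496). The related chemokine genes CXCL2 (37, 71 and 38 counts, then 13, 16 and 17) and CXCL3 (42, 98 and 103 counts, then 24, 33 and 27) had ratios of 0.328 and 0.360. NFKBIA, the inhibitor of NF-κB and one of its targets, held 15.6, 14.6 and 23.4 CPM in CTRL and 9.88, 10.8 and 9.94 CPM in JTE 18h (-0.80, SE 0.21). The groups did not overlap for any of these 4 genes. CXCL2 and NFKBIA lost their calls without JTE 18h replicate 1 or replicate 3, which left 2 of the 4; CXCL2 also lost its call without CTRL replicate 2 and NFKBIA without CTRL replicate 3. TNFAIP3, another NF-κB target (log2 fold change -0.81, SE 0.32), and IL6 (0.16, SE 0.65) did not pass.

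**Figure D5:**
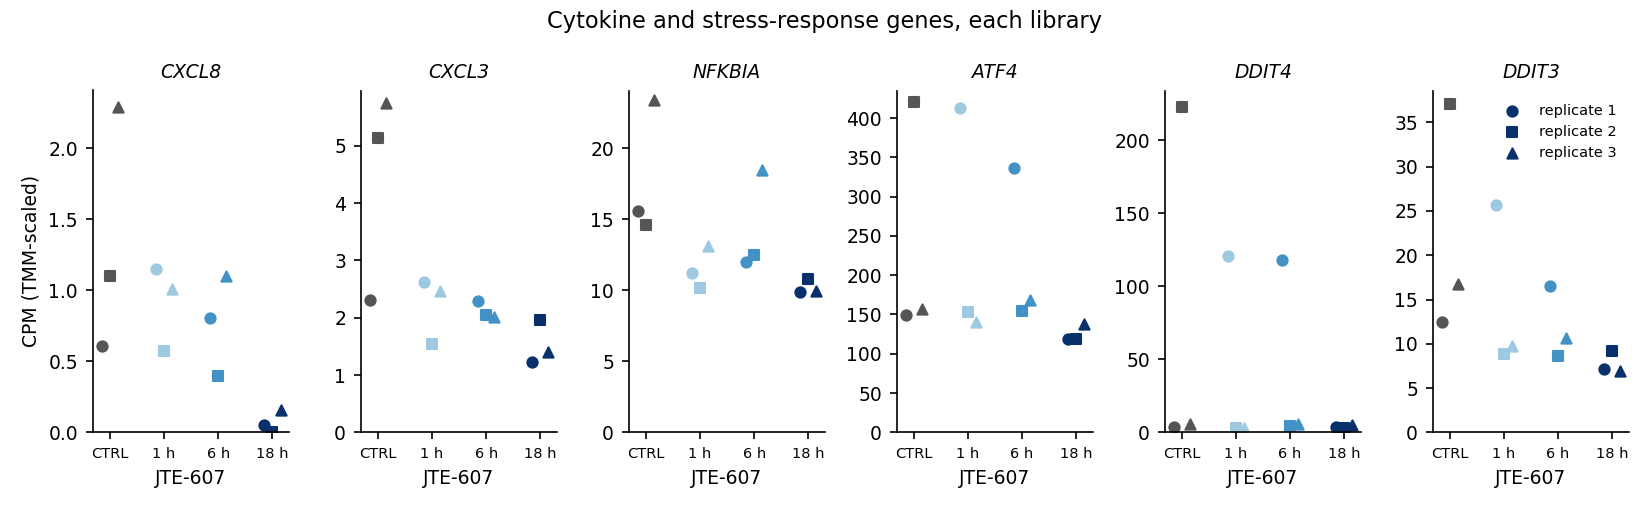
CPM of each library in CTRL and at 1, 6 and 18 h of JTE-607 for 3 cytokine-related and 3 stress-response genes, with the replicate number as the marker shape; y axes start at 0 and differ between genes. CXCL8 is near 0 in JTE 18h, and ATF4 and DDIT4 are high in CTRL replicate 2, JTE 1h replicate 1 and JTE 6h replicate 1 and low in every JTE 18h library.

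Genes of the integrated stress response, through which ATF4 raises amino acid synthesis and transport, lay lower in JTE 18h, but 1 CTRL library carried much of this. Of 22 tested genes 3 were called lower and 0 higher (2.09% and 3.29% over all genes), 21 had a negative log2 fold change and the median was -0.92. Over all genes, 8759 of 18095 had a positive log2 fold change. The groups did not overlap for 7 of the 22 (31.4% over all genes). Without CTRL replicate 2 the median was -0.231 and 0 genes were called by edgeR (3 had an unadjusted p under 0.05); the count was also 0 without JTE 18h replicate 1 or 3, and 1 without CTRL replicate 3. DDIT4, an inhibitor of mTORC1, held 3.75, 223 and 5.57 CPM in CTRL and 3.95, 2.98 and 5.13 CPM in JTE 18h, and CHAC1, which degrades glutathione, 0.276, 47.4 and 0.557 CPM and 0.760, 0.714 and 0.941 CPM. Neither was called (log2 fold changes -4.26 and -4.31, SE 2.17 and 2.40). The genes called were DDIT3, which encodes CHOP (12.5, 37.1 and 16.7 CPM in CTRL, 7.20, 9.17 and 6.90 CPM in JTE 18h, -1.51, edgeR adjusted p 0.0441), and the subunits of the large neutral amino acid transporter, SLC7A5 (189, 364 and 231 CPM, then 114, 131 and 110 CPM, -1.14) and SLC3A2 (119, 207 and 160 CPM, then 85.0, 113 and 88.1 CPM, -0.77). For these 3 the JTE 18h libraries lay below all CTRL libraries, and their log2 fold changes kept their sign without CTRL replicate 2 (DDIT3 -0.91) without passing the test.

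Cell cycle and cell death genes changed singly. CDC20, the activator of the anaphase-promoting complex, held 144, 133 and 156 CPM in CTRL and 83.7, 80.3 and 80.9 CPM in JTE 18h (-0.82, SE 0.11, edgeR adjusted p 2.05e-05), and PLK1, a mitotic kinase, 149, 143 and 152 CPM and 94.9, 107 and 90.0 CPM (-0.60, at the fold threshold, a call lost in 8 of 13 alternatives, DESeq2 among them); they were the 2 called of 30 mitosis genes (median -0.12). Of 21 genes of the G1 phase CCND1 was called (7.83, 10.5 and 10.6 CPM, then 3.4, 3.57 and 4.24 CPM, -1.37), a call lost in each of the 6 fits without 1 library. Over all genes 2.09% were called lower, beside 2 of the 30 mitosis genes and 1 of these 21. Among 20 apoptosis genes 3 were called higher and 0 lower (3.29% and 2.09% over all genes), with a median of -0.01. BMF, a BH3-only protein that promotes cell death, held 1.49, 2.51 and 1.45 CPM in CTRL and 3.75, 5.48 and 4.97 CPM in JTE 18h (1.37, SE 0.31), and APAF1, the scaffold of the apoptosome, and the BH3-only gene BAD rose by 0.76 and 0.74. BMF was called in every alternative run, while APAF1 and BAD each lost their calls in 5 of 13.

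All 22 ribosome biogenesis genes had a negative log2 fold change (median -0.32), 21 were not called, the groups did not overlap for 14 (31.4% over all genes), and 1, BOP1, a factor of the large subunit, was called (135, 113 and 90.4 CPM in CTRL, 52.2, 69.2 and 53.7 CPM in JTE 18h, -0.95). BOP1 was not called in 3 of the 6 fits without 1 library, those lacking CTRL replicate 1 and JTE 18h replicates 1 and 3. Of 33 erythroid genes 1 was called, the globin HBQ1 (3.91, 5.66 and 4.01 CPM, then 2.13, 2.98 and 2.35 CPM, -0.87), and the median was -0.06. Over all genes 2.09% were called lower, beside 1 of 22 ribosome biogenesis and 1 of 33 erythroid genes. Of 14 interferon-related genes 12 were not called, and all-gene shares were 3.29% higher and 2.09% lower; IFI27 was higher (0.386, 0.419 and 0.669 CPM, then 2.33, 1.31 and 2.04 CPM, 1.94) and IRF7 lower (-0.84, lost in 7 of 13 alternatives). No gene was called by edgeR among 24 of cholesterol synthesis, 15 heat shock, 19 immediate early, 16 STAT5 and ERK target, 31 splicing regulator, 15 snoRNA host, 6 miRNA host and 13 mitochondrially encoded genes or the 1 metallothionein tested. Their medians ran from -0.36 for immediate early genes to 0.47 for the metallothionein. The genes with an unadjusted edgeR p under 0.05 were, in that order of lists, 4, 1, 4, 1, 7, 6, 1, 0 and 0. DESeq2 called 1 immediate early and 1 miRNA host gene and 0 in the other 7 lists.

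The next question was where 18 h differed from 6 h of the same compound. By direct test 2431 genes were called (13.4%), 1404 higher (7.76%) and 1027 lower (5.68%) at 18 h. Histone genes were higher at 18 h than at 6 h for 21 of 44 and lower for 1 (H2BC14, below 1 CPM in all 6 libraries), with a median of 0.86. H2BC8, H3C10 and H4C14 differed by 1.49, 1.73 and 2.04 on the log2 scale. H2BC9 and H4C3, in contrast, were already high at 6 h (10.9, 7.74 and 7.42 CPM for H2BC9, then 10.8, 11.8 and 11.5 CPM at 18 h) and did not differ between the times.

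The genes with the largest falls from 6 to 18 h had been high at 6 h, and none of the 5 was called at 18 h against CTRL. AOC3 and AOC2, amine oxidase genes that lie in tandem behind PSME3, held 17.4, 18.8 and 39.4 CPM and 16.1, 19.1 and 31.6 CPM at 6 h, and 0.760, 0.774 and 0.732 CPM and 2.38, 3.21 and 2.82 CPM at 18 h, with log2 fold changes of -5.05 and -2.99. Their CTRL libraries held 0.210 to 0.780 CPM and 1.05 to 1.84 CPM, so that AOC2 still lay above CTRL in every library. BAAT, a bile acid conjugating enzyme (-4.11), the palmitoyltransferase gene ZDHHC11 (-3.85) and TACR2, the neurokinin A receptor (-3.03), fell likewise, and TACR2 still held 2.77 to 3.75 CPM at 18 h against 0.314 to 1.78 CPM in CTRL. Rises from 6 to 18 h were led by TBX10 (3.97) and PRR29 (2.79), described above, HYAL1, a hyaluronidase (2.42, 3.13 and 0.958 CPM at 6 h, 13.4, 14.8 and 13 CPM at 18 h, 2.68), KRBA1 (3.47, 4.89 and 3.21 CPM, then 17.1, 20.8 and 15.5 CPM, 2.21) and the lysophosphatidic acid receptor LPAR5 (2.10). KRBA1 held 20.2, 17.6 and 26.6 CPM in CTRL, so at 18 h it lay near its untreated level after a low value at 6 h.

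The last comparison set JTE 18h against imatinib for the same time. There 5474 genes were called (30.3%), 2454 higher (13.6%) and 3020 lower (16.7%) in JTE 18h. Of 33 erythroid genes 31 were lower in JTE 18h than in IM 18h and 0 higher (median -2.19). The mean summed level of this list was 7120 CPM in CTRL, 21400 CPM in IM 18h and 5780 CPM in JTE 18h. SLC4A1, the red cell anion exchanger, held 1030, 374 and 285 CPM in IM 18h and 5.57, 24.7 and 4.97 CPM in JTE 18h (-5.60), and EPB42, the globin HBD, ESPN and TNS1 were lower by -4.32, -3.96, -4.94 and -4.09. Of 16 STAT5 and ERK targets 14 were higher in JTE 18h than in IM 18h (median 1.96) and 0 lower. The mean summed level of that list was 1170 CPM in CTRL, 299 CPM in IM 18h and 968 CPM in JTE 18h. EGR1, an immediate early gene downstream of ERK, held 1.79, 1.68 and 1.38 CPM in IM 18h and 34.1, 69.1 and 37.2 CPM in JTE 18h (4.85). IL10RA, APOL4 and CFAP161 were higher by 5.37, 5.56 and 4.93, and TSPOAP1 by 6.67. Histone genes were higher in JTE 18h for 10 and lower for 2 of 44 (median 0.38), and H4C8, at 32.9, 36.1 and 21.3 CPM in IM 18h, was among the higher ones (2.27). Mean summed levels in CTRL, IM 18h and JTE 18h were 57.1, 126 and 164 CPM for H3 and 199, 361 and 465 CPM for H2A. They were 572, 634 and 843 CPM for H2B, 222, 213 and 401 CPM for H4 and 535, 559 and 526 CPM for H1.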

How the data were processed

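Poly(A) RNA of K562 cells was sequenced as 150-base pairs without molecular identifiers. The authors deposited raw counts of read pairs per gene: reads were trimmed and deduplicated with fastp, aligned to hg38 (GRCh38.p14 per the labels) with STAR, keeping unique alignments, and counted over exons with featureCounts without a strand option. Near-identical histone copies and genes overlapping on either strand are therefore uncertain. The annotation release is not given in the sources used here; of 58243 gene IDs, 57532 are in GENCODE 44, which gave symbols, stop codons and gene ends. Nuclear RNA and the other treatments were not analysed here, except that all 27 mRNA libraries shared 1 fit.

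The test was edgeR's quasi-likelihood F test (version 4.0.16, R 4.3.3) with TMM, filterByExpr, robust estimation and 1 term per group, and was first checked on simulated data; CPM values are TMM-scaled. Results were also computed with DESeq2 1.42.0, RLE and upper quartile normalization, no low-count filter, 2-group fits, a replicate block, no fold threshold, no abundant genes, other read-in settings and fits without 1 library; the block in 2-group fits, the block with CTRL 1 and 2 exchanged, the read-in score over genes of at least 1 CPM in CTRL and the counts of list, tandem and short genes under each setting were added after seeing the data. The members and lists were chosen with earlier results of these data known, so no test over a list is given. The titles number the replicates. Deviations of same-numbered JTE 18h and JTE 6h libraries correlated at 0.196, 0.322 and 0.112. For JTE 18h and IM 18h the correlations were -0.0757, 0.271 and 0.213. Libraries of different numbers were not correlated, so these values do not settle whether the numbers pair libraries. With CTRL the correlations were -0.125, -0.166 and 0.0553. The study's list of read totals numbers CTRL replicates 1 and 2 the other way round from the labels used here. With those numbers the correlations were 0.104, 0.243 and 0.0553. The main fit treated no libraries as paired, and which CTRL numbering is right was not tested.

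Genes named were members of 25 pathway and 7 marker lists, the 12 largest rises and falls against CTRL and the 5 against JTE 6h and IM 18h, among called genes with a symbol, groups that did not overlap and a mean of 10 CPM or more in the higher one; others are named as chosen after their values were seen. CXCL8, with 3 or fewer counts in each JTE 18h library, is given by counts. Sequences were read from hg38. Values of some marker and neighboring genes are not reported here.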

Additional observations from a re-analysis of the deposited data

Results flagged for a closer look

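JTE 18h differed from JTE 6h, both at the same dose, in a direct test by edgeR for 2431 genes. The largest differences were those of 10 genes. TBX10 (3.97), PRR29 (2.79), HYAL1 (2.68), KRBA1 (2.21) and LPAR5 (2.10) were higher at 18 h, and AOC3 (-5.05), BAAT (-4.11), ZDHHC11 (-3.85), TACR2 (-3.03) and AOC2 (-2.99) were lower, with log2 fold changes in brackets. The groups did not overlap for any of the 10. With the replicate block all 10 were called as well.

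JTE 18h also differed from IM 18h, a different compound for the same time, for 5474 genes. The genes with the largest differences were TSPOAP1 (6.67), APOL4 (5.56), IL10RA (5.37), CFAP161 (4.93) and EGR1 (4.85), higher in JTE 18h, and SLC4A1 (-5.60), ESPN (-4.94), EPB42 (-4.32), TNS1 (-4.09) and HBD (-3.96), lower. Of these 10 genes TSPOAP1 and IL10RA were also called higher in JTE 18h against CTRL. SLC4A1 and ESPN were higher in JTE 18h replicate 2 (24.7 and 4.46 CPM) than in the other JTE 18h libraries (at most 5.57 and 1.20 CPM).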

How the results depend on the processing

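No call of a named gene changed direction: of 1040 values under alternatives 919 kept their side of the threshold, and 38 of 65 called genes kept it in all. Against CTRL, calls ran from 577 (without JTE 18h replicate 3) to 874 (without replicate 2) when 1 library was left out; adjusted p alone called 1663 genes, and 3938 against JTE 6h. The replicate block called 1444 genes against CTRL, and 1575 with CTRL 1 and 2 exchanged, where 85 tandem, 161 isolated and 5 integrated stress genes were called. The correlations do not settle whether either numbering pairs JTE 18h with CTRL. Against JTE 6h the block called 2958 genes, where it also called GCDH, SOX5 and HBD lower and changed no other call among the genes of the largest changes. Integrated stress genes called lower were 16 with no filter, 1 with upper quartile normalization and 0 to 3 without 1 library, cytokine genes 2 to 4 and tandem genes 33 to 45; the cause was not tested.

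Upper quartile normalization moved the median of all genes from -0.011 to 0.022, and with it the list medians of the histone variants (0.114; 0.0181 in the 2-group fit), histone processing (-0.0462), cleavage and polyadenylation (0.0119, from -0.02), termination (0.0309), Integrator (-0.0848) and G1 genes (0.175), none of which had over 3 called genes. Without 1 library these medians ran from -0.0578 to 0.0989, -0.170 to -0.0426, -0.0566 to -0.0258, -0.0208 to 0.0256, -0.178 to -0.0410 and 0.0608 to 0.129. Those of cholesterol (-0.156 to 0.0250), interferon (0.206 to 0.454), metallothionein (0.103 to 1.02) and miRNA host genes (-0.125 to 0.207) also moved by more than the spread between replicates. The read-in score was higher in JTE 18h by 0.170, by 0.281 with a pseudocount of 0.1 and by 0.176 over genes of at least 1 CPM in CTRL. With a pseudocount of 1 the difference was 0.125, and without CTRL replicate 2 it was 0.117.

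Library totals were 16439848 to 19031221 counts. CXCL8 and H4C4 rest on at most 41 and 61 counts in a library, and with 3 libraries a group a missed threshold does not show that a gene did not differ.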
